A study of Mus musculus with 2 samples.

Results

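Genes of TGF-beta, BMP and activin signalling were described in brown preadipocytes (D0) and brown adipocytes (D7), with 1 library per stage. They were chosen by their symbols, and the choice was made with earlier results of these data known. Included were the TGF-beta, BMP, GDF and inhibin ligand genes, their receptors, the SMADs, the SMURF ligases and Id1 to Id4. The latent TGF-beta binding proteins and the gremlin, noggin, chordin, follistatin and Bambi genes were also taken. The choice took 72 of the 23361 genes with values. One of them, Bmp2k, a kinase named for its induction by BMP2, entered by its name and is not a ligand. Newborn mice gave the cells, from interscapular brown adipose tissue, and the cells were grown in 20% FBS. For both stages, cells stood for 4 days in DMEM that held T3 (1 nM), insulin (0.1 μM) and 10% FBS. D0 cells were taken before induction. D7 cells had received indomethacin (0.125 mM), dexamethasone (2 μg/ml) and IBMX (0.5 mM) for 2 days and were then kept in the same medium without these inducers. The labels call the cells primary cultures and the strain C57BL/6, where the study's methods name C57BL/6J. The methods also describe immortalization with large T and give other amounts of insulin and dexamethasone. The methods name 4 mice of either sex, 1 day old, but whether their cells were pooled is not given in the sources used here.

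Ligands of this family bind as dimers to a type II receptor, which phosphorylates a type I receptor. TGF-beta and activin type I receptors then phosphorylate SMAD2 and SMAD3, BMP type I receptors phosphorylate SMAD1, SMAD5 and SMAD9, and both kinds of SMAD enter the nucleus with SMAD4. In adipose tissue, TGF-beta and activin are known for holding precursor cells in a fibroblast-like state, and several BMPs for promoting commitment and brown differentiation.

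Values are FPKM (fragments for each kb of transcript in 1000000 reads), so they can be set side by side between genes. The fragments behind the values were inferred from 600 genes with a single exon, as 21435904 in the D0 library and 18254455 in the D7 library. The study reported more mapped reads for each library, with a smaller difference between the libraries. A ratio is FPKM at D7 over FPKM at D0. The interval after it is an exact 95% Clopper-Pearson interval on the fragments, which covers counting error only and compares the libraries, not the stages. There was no replicate and no test, and in RNA from a whole culture fewer cells of a type and less RNA per cell cannot be told apart. All 10 adipocyte markers were higher at D7 (their summed FPKM was 94.1 at D0 and 19687 at D7). Of 8 brown adipocyte markers, 3 were higher and 3 others, Ucp1, Cidea and Elovl3, were listed at 0 at D0. Of 10 markers of mural and smooth muscle cells 2 were higher and 4 lower. Their sum of 2556 at D0 and 418 at D7 was mostly Acta2 (2164 and 319). Of 11 proliferation markers 10 were lower. Of 13 macrophage markers 12 were higher, with sums of 157 and 591. Of the 11 endothelial markers 2 were higher and 3 lower, with sums of 5.56 and 4.31; Tek (0.520 and 1.62) and Kdr (0.300 and 0.655) were higher, Egfl7 (3.83 and 1.56) was lower, Pecam1 was at 0.0152 and 0.0178, and Tie1 and Cldn5 were listed at 0 in both libraries. The part of these cell types in the values below was not tested.

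FPKM was above 0 in both libraries for 61 of the 72 genes. At D7, 11 (18.0%) passed 2.0-fold upwards, where 18.5% of all 14986 genes above 0 in both libraries did, and 14 (23.0%) passed it downwards, where 13.2% of all genes did. Among genes that reached an FPKM of 1 in a library, 5 of 50 (10.0%) were higher against 15.6% of all 11967 such genes. In the same comparison 14 of 50 (28.0%) were lower against 11.9%. Of the 11 higher genes 6 stayed under an FPKM of 1 in both libraries, and all 14 lower ones reached it. The median ratio of the 61 genes was 0.926 (median log2 ratio -0.11, against 0.02 over all genes above 0 in both), and it was 0.926 also with 2 genes listed at 0 in 1 library set to their bounds. The summed FPKM of all members was 2219 at D0 and 1373 at D7. Of the remaining members, 4 had a 0 at D0 only, 2 at D7 only and 5 in both.

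**Figure D1:**
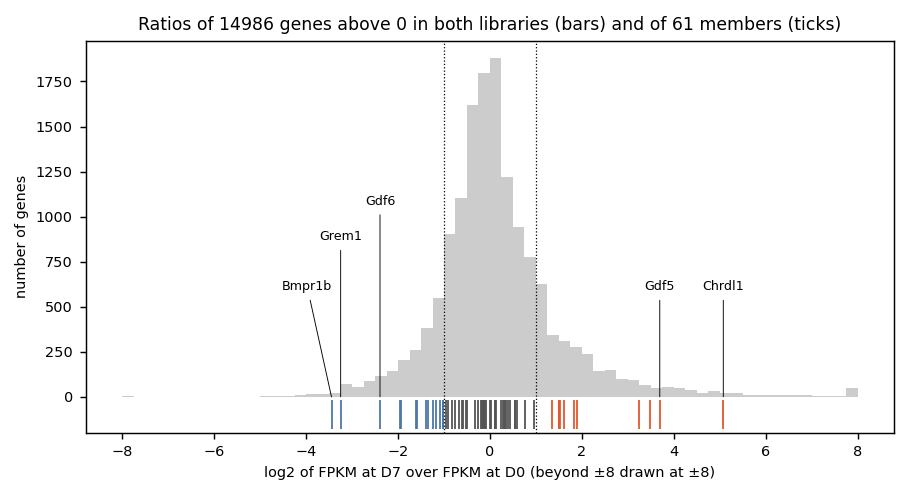
Histogram of the log2 ratio of FPKM at D7 over D0 for the 14986 genes above 0 in both libraries (grey bars, number of genes per bin), with a tick under the axis for each of the 61 pathway genes. Ticks are red past 2.0-fold upwards (11), blue past 2.0-fold downwards (14) and dark grey between, and dotted lines mark 2.0-fold. Bmpr1b and Grem1 lay lowest and Chrdl1 highest.

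Both activin beta subunits with an FPKM above 1 were lower at D7. Inhba, which encodes the subunit of activin A, stood at an FPKM of 34.2 at D0 against 8.78 at D7, a ratio of 0.257 (0.221 to 0.298). Inhbb, the subunit of activin B, was at 23.8 and 6.17, a ratio of 0.259 (0.234 to 0.287). The intervals of these 2 genes overlapped almost whole, so the subunits kept nearly the same proportion: Inhba made up 58.3% of the summed FPKM of the 5 subunit genes at D0 and 54.6% at D7. That sum was 58.6 at D0 and 16.1 at D7. Inha, the alpha subunit that turns activin into inhibin when paired with a beta subunit, was at 0.653 and 1.11, a ratio of 1.70 whose interval (0.898 to 3.30) included 1. Inhbc was listed at 0 in both libraries, and Inhbe was listed at 0 at D0 with 3 fragments at D7.

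The 3 TGF-beta genes did not pass 2.0-fold, yet the interval of each lay below 1. Tgfb3 was the highest of the 3 in both libraries, with FPKM of 33.4 at D0 against 23.3 at D7, a ratio of 0.700 (0.654 to 0.749). Tgfb1 was at 21.0 and 12.3, a ratio of 0.587 (0.523 to 0.658). Tgfb2 was at 3.52 and 2.19, a ratio of 0.622 (0.521 to 0.741). Their order by level was the same at both stages. Setting values under 0.01 to 0.01 and dividing each library by its median lowered every ratio above that floor alike, with a log2 shift of -0.35. With that common shift, the ratios of Tgfb1 and Tgfb2 were 0.460 and 0.487, past 2.0-fold.

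The BMP ligand genes differed from these in direction. Of 10 BMP ligand genes, 7 were above 0 in both libraries, 5 of them were higher at D7 and 0 were lower (18.5% and 13.2% of all genes), and the group's summed FPKM was 4.70 at D0 and 13.9 at D7. Bmp6 and Bmp4 led the group at both stages. Bmp6 stood at an FPKM of 1.90 at D0 against 6.71 at D7, a ratio of 3.53 (2.91 to 4.31) on 139 and 418 fragments. Bmp4, which is known for committing precursors to the adipocyte lineage, was at 1.87 and 5.35, a ratio of 2.85 (2.17 to 3.78) on 76 and 184 fragments. Together these 2 ligands were at a far lower level than the activin subunits at D0, while at D7 Bmp6 stood between Inhba and Inhbb.

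The other BMP genes that passed 2.0-fold stayed under an FPKM of 1. Bmp2 was at 0.0399 and 0.375, a ratio of 9.42 (2.84 to 49.0) that rested on 3 fragments at D0 and 23 at D7. Bmp3, a BMP known for opposing the others, was at 0.0318 and 0.355, a ratio of 11.2 (4.05 to 43.0) on 4 and 41 fragments. Bmp8a was at 0.213 and 0.603, a ratio of 2.83 (1.18 to 7.46). Reads of Bmp8a cannot be assigned with certainty, since it and its paralog Bmp8b lie over Oxct2 genes on the same strand. Bmp5 was at 0.595 and 0.397 with an interval that included 1 (0.396 to 1.10). Bmp8b had 2 fragments in each library, Bmp7 had 0 and 2, Bmp15 had 1 and 0, and Bmp10 was listed at 0 in both.

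Of 10 GDF ligand genes, 7 were above 0 in both libraries, 2 of them were higher at D7 and 3 were lower (18.5% and 13.2% of all genes). Their median ratio was 1.45. The 3 lower ones were those with the highest levels at D0. Gdf15, a stress-induced hormone that signals through a receptor outside this family, was at 21.3 at D0 against 9.04 at D7, a ratio of 0.424 (0.363 to 0.495). Gdf11, a close relative of myostatin that uses activin receptors, was at 15.0 and 4.94, a ratio of 0.329 (0.292 to 0.371). Gdf6 was at 3.86 and 0.735, a ratio of 0.190 (0.136 to 0.262), the lowest of the ligands with fragments in both libraries. Of its close relatives, Gdf5 was higher at D7 and Gdf7 was not seen there. Gdf5 was at 0.0436 and 0.565, a ratio of 12.9 (3.18 to 114) on 2 and 22 fragments. Gdf7 was at 0.344 at D0 on 9 fragments and listed at 0 at D7, at least 2.55-fold lower against a limit of 3 fragments, and the upper end of the exact interval of its ratio was 0.597. Gdf10, also called BMP3B, was at 2.84 and 4.12, a ratio of 1.45 (1.24 to 1.69). Gdf1 passed 2.0-fold upwards on 2 and 7 fragments with an interval that included 1 (0.713 to 36.9), and it shares its transcript with Cers1. Gdf9 was at 0.487 and 0.709 with an interval that included 1 (0.731 to 2.94). Gdf2, which encodes BMP9, a circulating ligand that acts on endothelium, and Gdf3 were listed at 0 in both libraries.

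**Figure D2:**
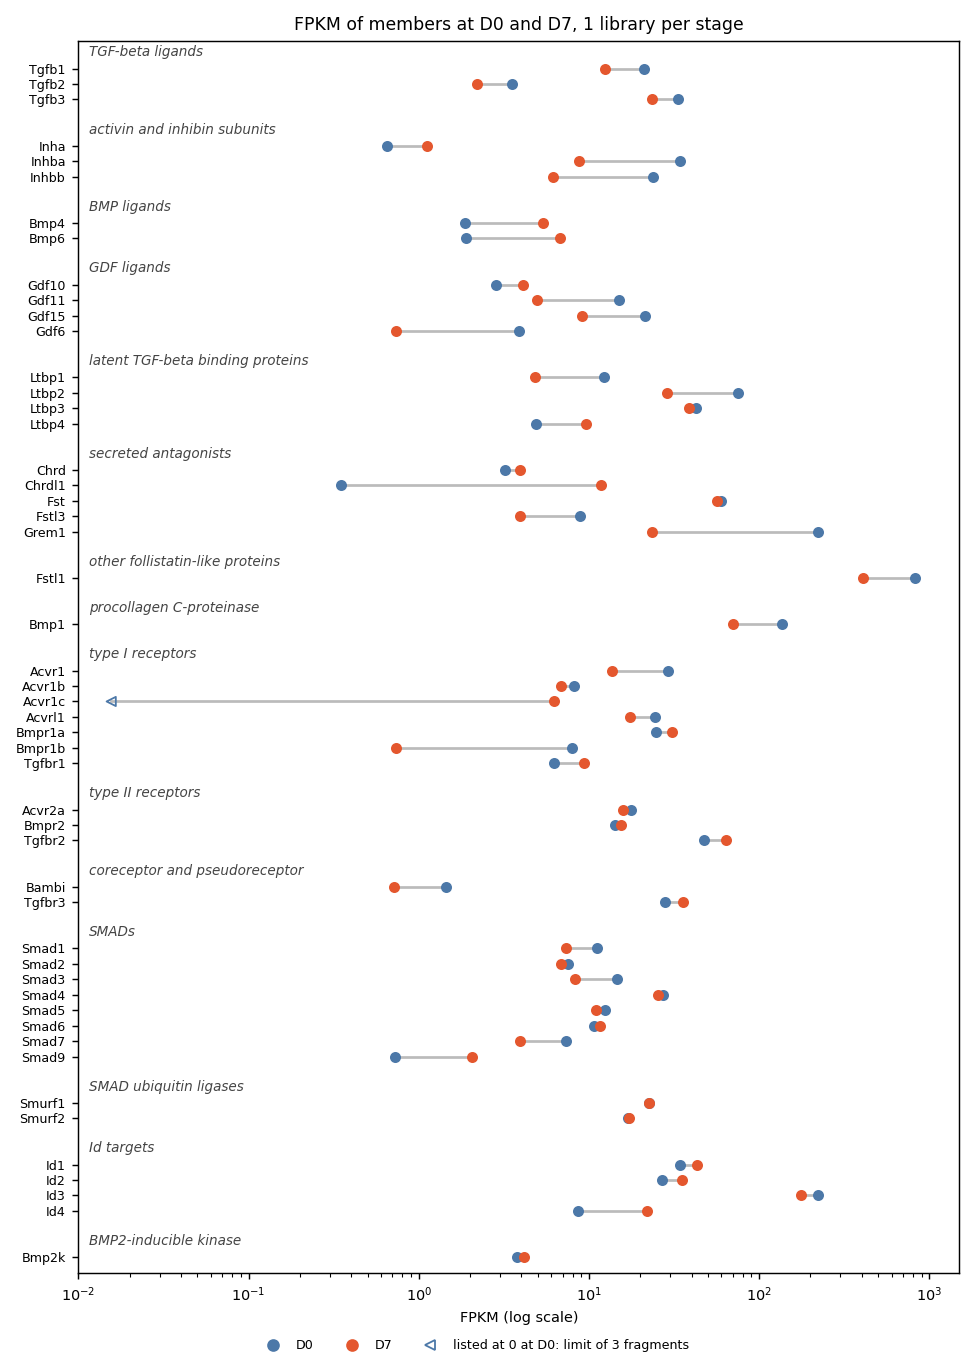
FPKM (log scale) of pathway genes that reached an FPKM of 1 in a library, at D0 (blue) and D7 (red), 1 library per stage and grouped by role. Lines join the values of a gene, and the open triangle marks the limit of 3 fragments for Acvr1c, which was listed at 0 at D0. Fstl1 had the highest FPKM at both stages (825 and 410), and Grem1, Inhba, Inhbb and Bmpr1b moved left while Bmp4, Bmp6 and Chrdl1 moved right.

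The secreted antagonists had a lower summed level at D7 and were led there by another gene. Grem1, a gremlin that binds BMP2, BMP4 and BMP7 and keeps them from their receptors, was at 222 at D0 against 23.3 at D7, a ratio of 0.105 (0.100 to 0.111) or 9.50-fold lower, on 18877 and 1690 fragments. Chrdl1, a chordin-like BMP antagonist, went the other way, from 0.348 on 29 fragments to 11.8 on 831 fragments, a ratio of 33.8 (23.3 to 50.7), the highest of the 61 genes. Fst, which encodes follistatin, the main activin-binding antagonist, was at 59.8 and 56.6, a ratio of 0.946 with an interval of 0.868 to 1.03. The sum of the 8 antagonists was 323 at D0 and 110 at D7. Grem1 made up 68.6% of that sum at D0 and 21.2% at D7, Fst 18.5% and 51.4%, and Chrdl1 0.108% and 10.7%. Within a library, the level of Grem1 was 118 times that of Bmp4 at D0 and 4.36 times at D7. The level of Fst was 1.75 times that of Inhba at D0 and 6.44 times at D7.

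Chrd, the founding chordin, was at 3.19 and 3.91, and Nog, noggin, at 0.615 and 0.755 with an interval of its ratio that included 1 (0.634 to 2.39). Fstl3, a follistatin relative, was at 8.90 and 3.93, a ratio of 0.441 (0.357 to 0.542). The locus given for it is 672334 bp long and overlaps 55 other annotated genes, so its value is uncertain. Fstl3 is still counted among the lower genes and in the antagonist sum. Chrdl2 was listed at 0 at D0 with 3 fragments at D7. Fstl1, a secreted glycoprotein named for its follistatin-like domain, had the highest FPKM of the 72 genes, 825 at D0 against 410 at D7. The ratio of 0.496 (0.489 to 0.503) lay just past 2.0-fold, and it was 0.512 when ratios were centred on the median. Fstl4 was at 0.745 and 0.653, and Fstl5 was listed at 0 in both libraries. Bmp1 is a procollagen C-proteinase that also cleaves chordin and LTBPs and is not a ligand. It was at 136 and 70.4, a ratio of 0.519 (0.501 to 0.538).

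**Figure D3:**
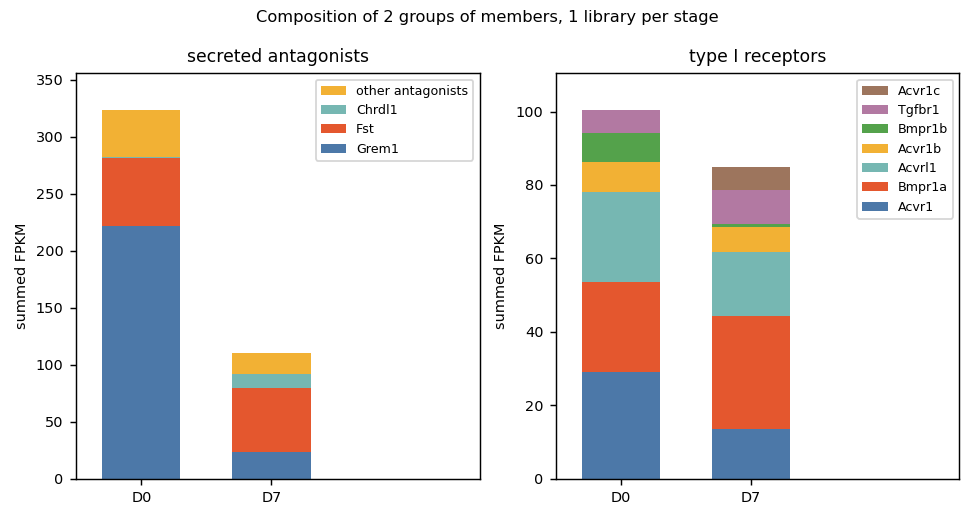
Stacked bars of summed FPKM at D0 and D7 for the 8 secreted antagonists (left; Grem1, Fst, Chrdl1 and the others together) and the 7 type I receptors (right; each colour 1 gene), 1 library per stage and no error bars. Grem1 filled 68.6% of the antagonist bar at D0 and Fst 51.4% at D7, and Acvr1c was seen only in the D7 receptor bar.

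The 4 latent TGF-beta binding proteins, which store TGF-beta in the extracellular matrix or share that fold, differed in direction. Ltbp2, which does not bind latent TGF-beta, was at 74.7 at D0 against 28.6 at D7, a ratio of 0.383 (0.368 to 0.398). Ltbp1 was at 12.3 and 4.79, a ratio of 0.391 (0.355 to 0.430). Ltbp3 was at 42.4 and 38.8, a ratio of 0.916, and became the highest of the 4 at D7. Ltbp4 was at 4.90 and 9.56, a ratio of 1.95 (1.75 to 2.17), just under 2.0-fold, and it was 2.01 when ratios were centred on the median.

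The type I receptors differed widely from one another. Acvr1c, which encodes ALK7, a receptor of activin B and some GDFs that is known for its high level in adipocytes, was listed at 0 at D0 and was at 6.19 at D7 on 1016 fragments. At D0 3 fragments would have given an FPKM of 0.0156, so Acvr1c was at least 398-fold higher at D7 against that limit, and the lower end of the exact interval of its ratio was 323. Bmpr1b, a BMP receptor also called ALK6, was at 7.90 and 0.733, a ratio of 0.0928 (0.0715 to 0.119) or 10.8-fold lower, the lowest ratio of the 61 genes. Acvr1, the BMP receptor ALK2, was at 29.0 and 13.6, a ratio of 0.467 (0.429 to 0.508). Bmpr1a, the BMP receptor ALK3, was at 24.6 and 30.8, a ratio of 1.25 (1.19 to 1.32), which was 0.98 with the common shift of the floor and median scaling. Of the summed FPKM of these 3 BMP receptors, which was 61.5 at D0 and 45.1 at D7, Bmpr1a took 40.0% at D0 and 68.3% at D7, Acvr1 47.2% and 30.1%, and Bmpr1b 12.8% and 1.63%. The level of Bmpr1a was 3.11 times that of Bmpr1b at D0 and 42.0 times at D7.

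Tgfbr1, the TGF-beta receptor ALK5, was at 6.20 and 9.35, a ratio of 1.51, under 2.0-fold. Acvr1b, the activin receptor ALK4, was at 8.16 and 6.85, a ratio of 0.839. Acvrl1, ALK1, a receptor best known from endothelium, was at 24.5 and 17.5, a ratio of 0.713. Of the 11 endothelial markers, whose sums were 5.56 and 4.31, 2 were higher and 3 lower, and their part in the Acvrl1 value was not tested. The type II receptors lay within 2.0-fold except for Acvr2b. Tgfbr2 was the highest of them, at 47.5 and 64.0, a ratio of 1.35. Bmpr2 was at 14.2 and 15.4 and Acvr2a at 17.5 and 15.8, ratios of 1.08 and 0.903. Acvr2b passed 2.0-fold at a low level, at 0.153 and 0.469, a ratio of 3.06 (1.14 to 9.56) on 6 and 16 fragments. Tgfbr3, betaglycan, a coreceptor that presents TGF-beta2 and inhibin, was at 27.8 and 35.5, a ratio of 1.28. Bambi, a pseudoreceptor without a kinase domain, was at 1.45 and 0.710, a ratio of 0.491 (0.360 to 0.662), which was under 2.0-fold with a pseudocount of 0.1.

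**Figure D4:**
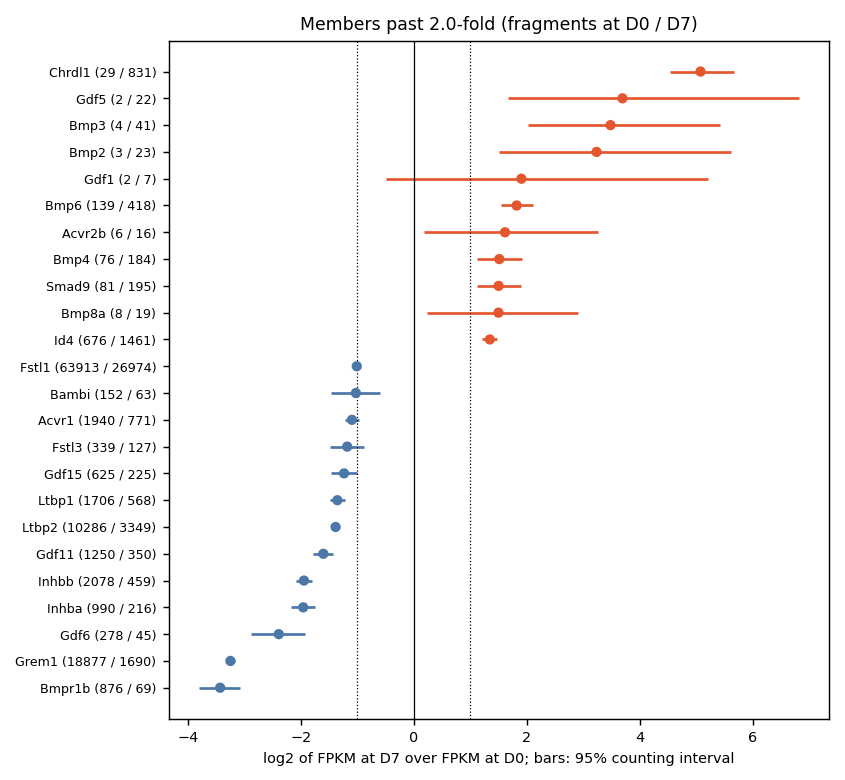
Log2 ratio of FPKM at D7 over D0 for 24 of the 25 pathway genes past 2.0-fold (points, red higher and blue lower), with exact 95% counting intervals (bars) and the fragments at D0 and D7 after each symbol. The interval of Gdf1 included no difference, and that of each other gene drawn did not.

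The promoters of 5 genes that the comparison turned on are shown as the 250 bases before the RefSeq start, in GRCm38.p6, read 5' to 3' on the strand of the gene. They are 2 of the lowest genes, Grem1 and Bmpr1b, the activin subunit Inhbb that moved with Inhba, and the BMP ligand Bmp4 and BMP SMAD Smad9 that were higher. Only genes whose window held no annotated exon of the gene, and whose RefSeq start lay close to the start of the deposited locus, were taken. Capitals mark GGCGCC, a GC-rich SMAD motif, and CAGAC, a SMAD binding element, on either strand. Grem1 lies on the minus strand (chr2:113758649-113758898), as do Bmpr1b (chr3:141982265-141982514), Inhbb (chr1:119422249-119422498) and Bmp4 (chr14:46390670-46390919), and Smad9 lies on the plus strand (chr3:54755332-54755581).
Grem1: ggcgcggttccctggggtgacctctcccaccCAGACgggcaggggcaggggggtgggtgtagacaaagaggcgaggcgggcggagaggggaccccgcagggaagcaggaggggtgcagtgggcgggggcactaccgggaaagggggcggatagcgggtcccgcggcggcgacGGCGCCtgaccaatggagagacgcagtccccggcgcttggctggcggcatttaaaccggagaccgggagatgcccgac
Bmpr1b: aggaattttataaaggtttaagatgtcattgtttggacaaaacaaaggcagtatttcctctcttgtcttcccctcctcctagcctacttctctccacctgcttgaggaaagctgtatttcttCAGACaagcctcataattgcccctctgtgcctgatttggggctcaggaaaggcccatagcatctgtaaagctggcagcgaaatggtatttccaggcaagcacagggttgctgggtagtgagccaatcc
Inhbb: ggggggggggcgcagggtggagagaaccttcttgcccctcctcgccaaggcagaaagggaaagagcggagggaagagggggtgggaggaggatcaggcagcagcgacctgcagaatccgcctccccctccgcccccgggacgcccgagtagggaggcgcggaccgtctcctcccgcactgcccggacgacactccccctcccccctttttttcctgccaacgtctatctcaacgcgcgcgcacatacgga
Bmp4: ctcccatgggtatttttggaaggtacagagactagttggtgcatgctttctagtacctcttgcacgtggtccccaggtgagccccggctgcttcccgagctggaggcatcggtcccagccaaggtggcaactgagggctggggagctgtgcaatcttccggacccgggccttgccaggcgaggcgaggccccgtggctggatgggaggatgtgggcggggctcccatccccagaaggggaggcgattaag
Smad9: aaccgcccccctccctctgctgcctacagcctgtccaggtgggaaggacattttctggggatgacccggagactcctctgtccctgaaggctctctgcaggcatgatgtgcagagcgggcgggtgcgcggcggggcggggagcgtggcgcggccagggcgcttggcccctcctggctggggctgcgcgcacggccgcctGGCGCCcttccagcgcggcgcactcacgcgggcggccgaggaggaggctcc
The Grem1 window held 1 GGCGCC at -78 to -73 and 1 CAGAC at -219 to -215, counted from -1 at the base before the start, and 72.0% of its bases were G or C. The Bmpr1b window was the only one of the 5 with under 60% G and C (46.8%), and it held 1 CAGAC at -128 to -124. This window lies inside the Bmpr1b gene as annotated in GENCODE, which starts further upstream, at 142169425 on the minus strand. Smad9 held 1 GGCGCC at -51 to -46, and neither motif was in the windows of Inhbb and Bmp4. Windows were found for 51 of the 72 genes. GGCGCC was in 11 of them (21.6%), against 9.59% of all 32851 windows of the same length, and CAGAC was in 25 (49.0%), against 42.2%. Of the matched genes past 2.0-fold, GGCGCC was in 3 of 7 higher ones (Gdf1, Id4 and Smad9) and in 1 of 11 lower ones (Grem1), and CAGAC was in 4 of 7 and 6 of 11. A match is a run of letters and not evidence of binding.

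The SMADs stayed within 2.0-fold with 1 exception. Smad9, the least abundant of the 3 BMP-type SMADs, was at 0.727 at D0 against 2.06 at D7, a ratio of 2.83 (2.17 to 3.72), and its share of the summed FPKM of Smad1, Smad5 and Smad9 was 3.0% at D0 and 10.1% at D7. Smad5 was at 12.4 and 11.0 and Smad1 at 11.1 and 7.30, ratios of 0.889 and 0.659. Of the SMADs of the TGF-beta and activin branch, Smad3 was at 14.5 and 8.23, a ratio of 0.566 (0.518 to 0.619), and Smad2 at 7.47 and 6.80, a ratio of 0.910. Smad4, the SMAD common to both branches, was the highest of the 8 at both stages, at 27.4 and 25.3. The inhibitory SMADs diverged. Smad7, which shuts off TGF-beta receptors and is induced by them, was at 7.34 and 3.91, a ratio of 0.532 (0.462 to 0.612). Smad6, which acts mainly on BMP receptors, was at 10.7 and 11.6, a ratio of 1.08 whose interval included 1. The level of Smad6 was 1.45 times that of Smad7 at D0 and 2.96 times at D7. With the common shift of the floor and median scaling, Smad3 (0.444) and Smad7 (0.417) passed 2.0-fold downwards. The ubiquitin ligases Smurf1 (22.6 and 22.4) and Smurf2 (17.0 and 17.1) had ratios of 0.994 and 1.01 with intervals that included 1.

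The Id genes, which encode inhibitors of bHLH factors and are direct targets of BMP SMADs, summed to 290 at D0 and 275 at D7. Id3 was the highest at both stages, at 220 and 175, a ratio of 0.796 (0.763 to 0.831). Id1 was at 34.4 and 43.2, a ratio of 1.25 (1.12 to 1.41), and Id2 at 26.9 and 35.2, a ratio of 1.31. Id4 alone passed 2.0-fold, at 8.59 and 21.8, a ratio of 2.54 (2.32 to 2.79), and it was 1.99 with the common shift of the floor and median scaling. With that shift the ratios of Id1 and Id2 were 0.983 and 1.02. Bmp2k was at 3.78 and 4.16, a ratio of 1.10 with an interval that included 1.

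Genes known to respond to TGF-beta were lower almost without exception, in a list that, like those below, was drawn up with earlier results of these data known. Of 12 such genes, 0 were higher and 11 were lower (of all genes 18.5% were higher and 13.2% lower), with a median log2 ratio of -2.10 against 0.02 over all genes. Tgfbi, a matrix protein named for its induction by TGF-beta, was at 58.5 and 5.31, a ratio of 0.0907. Ctgf was at 513 and 109, a ratio of 0.212, and Fn1, fibronectin, at 1210 and 337, a ratio of 0.279. The contractile genes Acta2 and Cnn1 had ratios of 0.147 and 0.0969. Postn, periostin, was the gene of the list within 2.0-fold, at 837 and 752. Acta2, Cnn1 and Col1a1 are also in the mural or fibroblast marker lists, so their own values are part of the sums of those lists. The mural sum was 2556 and 418, with Acta2 alone at 2164 and 319, and of 10 markers 2 were higher and 4 lower. The fibroblast sum was 4710 and 2410, with Col1a1 at 1900 and 601, and of 11 markers 2 were higher and 3 lower. The part of these cell types in the result was not tested.

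Of 8 genes listed as responding to BMP, 7 were above 0 in both libraries, 1 was higher and 2 were lower (18.5% and 13.2% of all genes), with a median ratio of 1.31. That median was the ratio of Hey1, on 10 and 11 fragments with an interval of 0.504 to 3.44. Sp7, 1 of the 2 lower genes, had 8 and 3 fragments and an interval that included 1 (0.0670 to 1.63). Zfp423, the 1 higher gene, was at 1.35 and 3.34, a ratio of 2.47. It is a preadipocyte factor that amplifies BMP signals, and so is less clearly a target of them. None of the other genes of the list was higher. Atoh8 was at 12.2 and 19.3, a ratio of 1.58. Msx2 was at 1.15 and 0.442, a ratio of 0.384, and the rest were under an FPKM of 1 in both libraries. The 2 lists together with the Id genes are drawn in the plot of target genes.

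**Figure D5:**
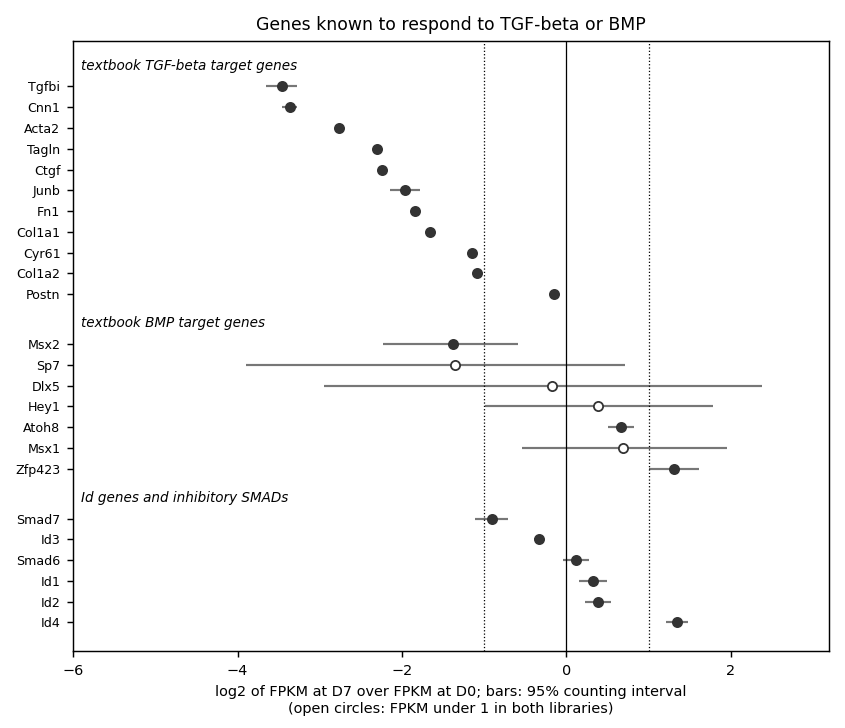
Log2 ratio of FPKM at D7 over D0 for genes known to respond to TGF-beta (11 of the 12), genes listed as responding to BMP, and the Id genes and inhibitory SMADs. Bars are exact 95% counting intervals, and dotted lines mark 2.0-fold. Open circles had FPKM under 1 in both libraries. The TGF-beta genes drawn lie left of 0 throughout, and the BMP list and the Id genes lie on both sides of it.

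Among 12 genes that release or hold latent TGF-beta, 11 were above 0 in both libraries, of which 3 were higher and 5 were lower, where 18.5% and 13.2% of all genes were. Thbs1, thrombospondin 1, which activates latent TGF-beta, was at 3618 and 1118, a ratio of 0.309. Lrrc32, which encodes GARP, the protein that tethers latent TGF-beta to the cell surface, was at 94.4 and 15.3, a ratio of 0.162. Its relative Lrrc33, which has that role in macrophages and microglia, was at 0.510 and 2.24, a ratio of 4.39, beside the 12 macrophage markers of 13 that were higher. Itgav, the integrin chain that binds latent TGF-beta, was at 63.0 and 19.7, a ratio of 0.313. Mmp14 and Emilin1 had ratios of 0.380 and 0.381. Tgm2, transglutaminase 2, was at 17.8 and 43.3, a ratio of 2.44, and Itgb8 was higher under an FPKM of 1.

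Of 20 other extracellular modulators, 16 were above 0 in both libraries, and 1 was higher and 2 were lower. Rgma, a BMP coreceptor, was at 5.85 and 15.0, a ratio of 2.56. Bmper, a BMP-binding protein, was at 25.3 and 9.85, a ratio of 0.389, and Tmeff1 at 24.3 and 6.83, a ratio of 0.281. Of 26 intracellular regulators, 25 were above 0 in both libraries, and 2 were higher and 5 lower. The higher ones were Hipk2, a nuclear kinase, at 6.48 and 27.9, a ratio of 4.31, and the ubiquitin ligase Wwp1, with a ratio of 2.83. The lower ones were Runx1 (ratio 0.227), the SMAD corepressors Tgif1 (0.304) and Tgif2 (0.322), Pmepa1, a TGF-beta-induced inhibitor of SMAD activation (0.354), and Wwp2 (0.496). Of 8 other ligands and ligand receptors of the family, Lefty1 was lower, at 3.46 and 1.31, Amh was higher on 1 and 4 fragments, and the coreceptor Eng was at 22.4 and 12.2, a ratio of 0.544. The 6 lists held 86 genes, of which 75 were above 0 in both libraries, 8 were higher and 26 were lower (18.5% and 13.2% of all genes), with a median ratio of 0.867.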

How the data were processed

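RNA-Seq was performed on 1 library of D0 and 1 of D7 cells. Per the study's methods, the authors removed duplicate and rRNA reads, aligned the others to mm10 with SOAP2 (up to 5 mismatches), and deposited 1 FPKM value per gene, used here as deposited. The submitters' processing notes name Bowtie2 instead, and the use of strand in counting is not given in the sources used here, so overlapping genes are uncertain. Of 27324 rows 3963 had no value. No value column was left unmatched (0).

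The ratio of D7 to D0 was taken for genes above 0 in both libraries and called at 2.0 or more or 0.5 or less. Fragments were recovered from 600 single-exon genes of at least 600 bp whose ends differed from the annotation by at most 500 bp. With 177 bp taken from the length at D0 and 181 bp at D7, 100% of 79 and of 89 low values (20 fragments or fewer) came within 0.1 of a whole number. For other genes the length of the named transcript was used (of 72, 68 had one), so their fragments are approximate. Intervals are at 95%, cover counting error only, and 3 fragments or fewer were read as a limit. Of 76 genes for ribosomal proteins, the 2 listed at 0 were the tissue-restricted paralogs Rpl10l and Rpl3l.

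Genes with an FPKM of at least 1 in a library were named with both values. Genes below that were named where they passed 2.0-fold with an interval that left out 1, and otherwise by name or count. Of the other lists, called genes at an FPKM of 1 or more and the most extreme ones were named. Values of some single genes are not reported here, though the counts and sums include them. Members and lists were chosen with earlier results of these data known. In a simulation, 200 of 200 genes given a 4 or 8 fold change were called, as was 1 of 10573 left unchanged. Of 200 intervals, 97.0% contained the fold that had been set. Such a trial checks the computation only. With 1 library per stage, it cannot show how often genes would be called between cultures of the same stage. Promoters and the annotation were from RefSeq (GRCm38.p6) and GENCODE vM21. Computations used scipy 1.17.1, pandas 2.3.3 and numpy 2.4.6 under Python 3.11.15, with plots by matplotlib 3.10.9.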

Additional observations from a re-analysis of the deposited data

How the results depend on the processing

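No paired analysis was possible because each stage has 1 library, which also means that no replicate could be left out in turn and no test across samples was available. The count of 11 higher pathway genes was 5 of 67 with a pseudocount of 1 (9.2% of all genes) and 4 of 61 at 4.0-fold (8.08%). It was 7 of 56 when both libraries had to reach an FPKM of 0.1 (15.4%). When 1 library had to reach an FPKM of 1, it was 5 of 50 (15.6%). The count of 14 lower genes was 13 of 67 with a pseudocount of 1 (6.12% of all genes) and 3 of 61 at 4.0-fold (3.86%). With the 2 FPKM thresholds it stayed at 14 (12.3% and 11.9% of all genes). The other pathway genes are read against the same shares. Their 8 higher ones were 5 with a pseudocount of 1 and 3 at 4.0-fold, and their 26 lower ones were 22 and 8. With a floor of 0.01 and division by the library median, every ratio above the floor shifted by -0.35 on the log2 scale. The median log2 ratio was then -0.35 for the pathway genes and for all genes alike. Genes listed at 0 in both libraries, 5 of the pathway genes and 6690 of all genes, took exactly this shift. Both medians fell on that value, so they cannot compare the pathway genes with all genes. Of all 23361 genes, with zeros at the floor, 12.1% were higher and 16.4% lower. As deposited, the shares were 18.5% and 13.2% of the 14986 genes above 0 in both libraries. Among the settings with shares for all genes, only the floor with the library median gave more lower than higher genes. The study itself reported more lower genes than higher ones. Which scaling lay behind its calls is not given in the sources used here. With the floor and library median, 14 of the 72 pathway genes were higher and 21 lower, with zeros replaced by the floor. Of the other pathway genes, 7 were higher and 34 lower. Tgfb1, Tgfb2, Smad3 and Smad7 were past 2.0-fold downwards there, and Id4 was under 2.0-fold. Bmp1 was at 0.407 there, past 2.0-fold, and at 0.519 without the shift. Of 25 called genes, 15 kept their call under every alternative at 2.0-fold that gave a ratio, which leaves out the 4.0-fold threshold. No called gene turned its direction (0), but 8 genes under 2.0-fold had ratios on both sides of 1 over the alternatives (Bmp2k, Bmpr1a, Bmpr2, Chrd, Id1, Smad6, Smurf1 and Smurf2). Of the single gene values 61 moved out of their interval and 489 did not. Genes under an FPKM of 1 rest on few fragments and were the ones lost with a pseudocount of 1, together with Smad9 and Bambi.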

Other observations

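Some pathway genes lie next to each other. Acvr1c (chromosome 2, 58267453 to 58357895) and Acvr1 (58388644 to 58567157) are both on the minus strand, 30.7 kb apart in GENCODE vM21. Acvr1c went from a listed 0 to 6.19, while Acvr1 had a ratio of 0.467. Smad3 and Smad6 lie 195 kb apart on chromosome 9 with ratios of 0.566 and 1.08. Gdf10 and Gdf2 lie 3.06 kb apart on chromosome 14, and Gdf10 was at 2.84 and 4.12 while Gdf2 was listed at 0 in both libraries. Acvrl1 and Acvr1b lie 28.7 kb apart on chromosome 15, and their ratios were 0.713 and 0.839, with intervals that overlapped.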
